A study of Canis lupus familiaris with 4 samples.

Results

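The genes described here are 40 genes of glucose use and of the response to low oxygen, measured in 4 canine glioblastoma lines with 1 Affymetrix canine array per line. They were chosen by gene symbol, with earlier results of these data known, so shares set beside those of all genes are descriptions. There were 25 genes of glycolysis, which carry glucose or lactate, catalyse a step of the pathway or regulate it, and 15 other genes of the hypoxia response. Of the 40 genes, 39 had a probe set with a single gene symbol, out of 15115 such genes on the array. The exception was LDHB. These 39 genes had 89 probe sets, and 27 genes had more than 1, so the one brightest on average stood for its gene and the others served as a check. J3T-2A is the J3T-2 line overexpressing annexin A2 (ANXA2), a calcium-dependent phospholipid-binding protein, and J3T-2 is labelled as low in ANXA2. J3T-1shA is the J3T-1 line with ANXA2 knocked down, and J3T-1 is labelled as high in ANXA2. Both parental lines are subclones of the same canine glioma cells, J3T. All 4 lines were grown in the same serum-containing medium, and no label names a hypoxic treatment, so the values describe these cells in ordinary culture. None of the 4 arrays is labelled as a control-vector line, so effects of a vector or of selection were not tested.

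Glycolysis converts glucose to pyruvate in the cytosol, and tumour cells often turn much of that pyruvate into lactate even where oxygen is present. When oxygen is scarce, the prolyl hydroxylases encoded by EGLN genes mark the alpha subunit of hypoxia-inducible factor (HIF) less efficiently, the protein accumulates, and it raises transcription of glucose transporters, most glycolytic enzymes, carbonic anhydrases, mitophagy receptors and collagen-modifying enzymes. In glioblastoma this response is known from the cells that border necrosis.

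Values are MAS 5.0 signals, linear intensities that the authors scaled to one trimmed mean per array, and a line name beside a value stands for the array labelled with it. A gene was taken as measured when at least 1 array of the pair gave it a signal of 250 or more, and as higher or lower where its ratio exceeded 2-fold. Between 35.2% and 35.9% of probe sets passed this limit on an array. With 1 array per line no difference carries a test, and precision is limited by how few arrays there are. The only spread available is that between probe sets of one gene. Over the 3716 genes with a second measured probe set in J3T-2A over J3T-2, the log2 ratios of both probe sets differed with an SD of 0.29, and over 3760 genes in J3T-1shA over J3T-1 the SD was 0.37. Such a spread leaves out how cultures of one line vary. ANXA2 itself did not follow the labels. One bright probe set had signals of 28775 in J3T-2A against 30102.5 in J3T-2 and of 30093 in J3T-1shA against 28656 in J3T-1, and the other had 35651 against 30311 and 25725 against 24127.5. The sources used here do not say whether these probe sets read the introduced transcript. Of the glial markers, VIM, SOX2 and SLC1A3 were over the limit on every array, whereas GFAP, AQP4 and S100B were under it on every array. SLC1A3, a glial glutamate transporter, was over 2-fold higher in both engineered lines, with 3999 in J3T-2A against 1996 in J3T-2 and 5505.5 in J3T-1shA against 2422 in J3T-1. Over the marker list, 1 of 3 measured genes was higher in J3T-2A, where 1.69% of all measured genes were, and 2 of 4 in J3T-1shA, where 4.26% were. NES, which reached the limit in J3T-1shA alone, is within 2-fold (at least 1.38-fold higher) with its J3T-1 signal set to the limit. That leaves SLC1A3 alone over 2-fold there. The median log2 ratio of 1.01 in J3T-1shA over J3T-1 uses the NES signals as deposited. No marker of the list was over 2-fold lower, and the part of such a shift in the results was not tested. Signals of different probe sets are not compared as abundances.

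Of the 40 genes, 35 reached the limit on at least 1 array and 30 on all 4. PFKFB4, CA12, BNIP3 and HMOX1 stayed under it throughout, with highest signals of 206, 70.0, 207 and 130.3. In 17 of the 35 genes the 4 signals lay within 1.5-fold of each other (48.6%, against 56.6% of all 7241 genes that reached the limit on any array), and in 12 they spanned over 2-fold (34.3%, against 16.8% of all). The steady genes were 13 of 23 glycolysis genes (56.5%), a share like that of all genes, and 4 of 12 other hypoxia genes (33.3%). Those spanning over 2-fold were 6 of 23 glycolysis genes (26.1%) and 6 of 12 others. The steady ones were SLC2A1, HK1, HK2, GPI, PFKL, PFKP, ALDOA, PGK1, PGAM1, ENO1, LDHA, PDK1 and SLC16A1 among glycolysis genes, and CA9, BNIP3L, HIF1A and ANKRD37 among the others.

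**Figure D1:**
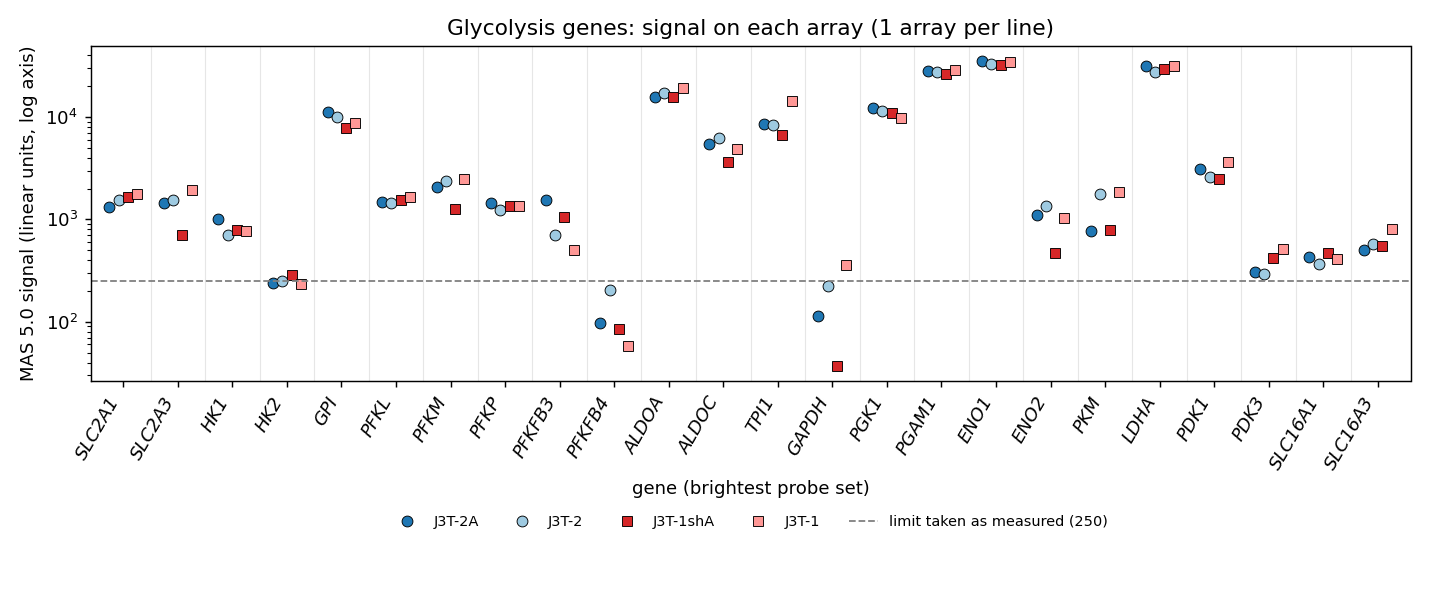
Signal of the brightest probe set (y axis, linear MAS 5.0 units on a log axis) of the 24 glycolysis genes with a single-symbol probe set (x axis) on the arrays labelled J3T-2A, J3T-2, J3T-1shA and J3T-1, 1 array per line, with the limit of 250 dashed. SLC2A3, TPI1, ENO2 and PFKM are lowest in J3T-1shA, PFKFB3 is higher and PKM lower in both engineered lines than in their parental lines, and most other genes lie close together.

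In J3T-1shA against J3T-1, the comparison of ANXA2 knockdown with its parental line, a glucose transporter and several glycolytic enzymes were lower. Of 23 measured glycolysis genes, 5 were over 2-fold lower (SLC2A3, TPI1, GAPDH, ENO2 and PKM), 1 was over 2-fold higher (PFKFB3) and 17 were within 2-fold. GAPDH was measured through J3T-1 alone and is within 2-fold with its J3T-1shA signal set to the limit, which leaves 4 lower. Of 11 other measured hypoxia genes, CA2 and DDIT4 were over 2-fold lower, none was over 2-fold higher and 9 were within 2-fold. Over both lists this made 7 of 34 genes lower (20.6%), where 3.8% of all 6944 measured genes were, and 1 of 34 higher (2.94%), where 4.26% of all were. Because the lists were chosen with earlier results of these data known, these shares are a description and not a test. With every signal under the limit set to it, 6 of 34 were lower (17.6%), against 2.79% of all measured genes. By their second brightest probe sets SLC2A3 and TPI1 stayed over 2-fold lower, while ENO2, PKM and DDIT4 were lower but within 2-fold. GAPDH and CA2 had no second measured probe set. The log2 ratio was below 0 for 25 of the 34 genes, or 73.5%, against 52.9% of all measured genes. Median log2 ratios were -0.19 for glycolysis genes and -0.14 for the other hypoxia genes, beside -0.03 for all measured genes.

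In J3T-2A against J3T-2, the comparison of ANXA2 overexpression with its parental line, few of these genes differed. PFKFB3 was over 2-fold higher and PKM over 2-fold lower among 21 measured glycolysis genes, and NDRG1 was over 2-fold lower among 10 other hypoxia genes. That is 1 of 31 genes higher, where 1.69% of all 6860 measured genes were, and 2 of 31 lower (6.45%), where 2.1% of all were. Of the 31 genes, 24 had a log2 ratio smaller than the SD between probe sets. The median log2 ratio was 0.06 for glycolysis genes and -0.14 for the other hypoxia genes, beside 0.00 for all measured genes.

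**Figure D2:**
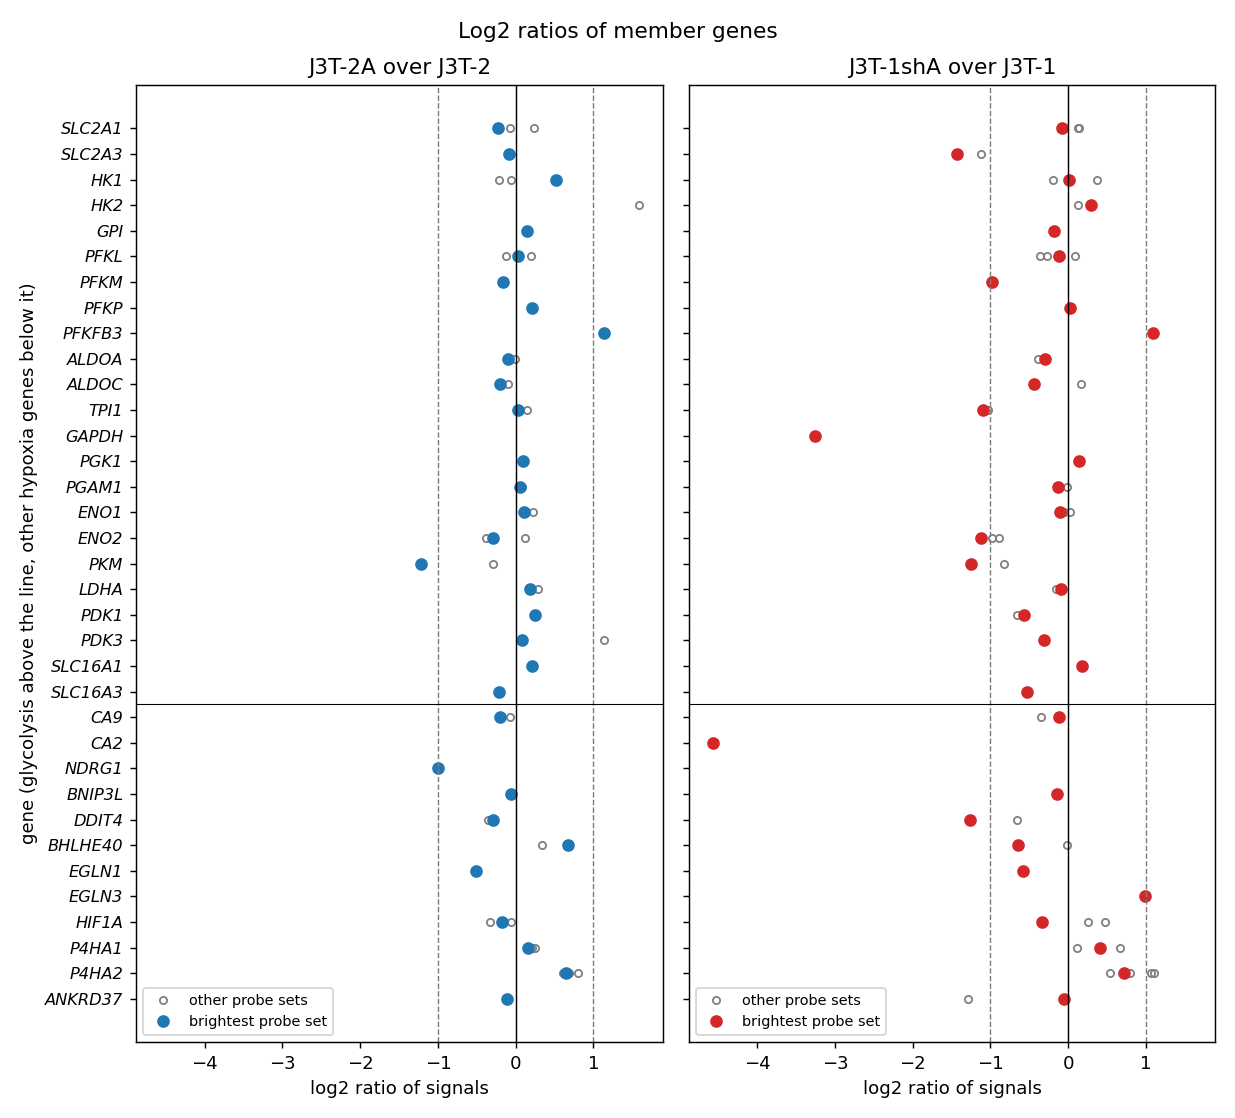
Log2 ratio of signals (x axis) of each measured gene for J3T-2A over J3T-2 (left) and J3T-1shA over J3T-1 (right), 1 array per line. Filled points are the brightest probe set, open points are other probe sets that reach the limit of 250, dashed lines mark 2-fold, and in the right panel 25 of 34 filled points lie below 0.

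Glucose enters the cell through transporters of the SLC2A family. SLC2A3, the high-affinity transporter of neurons and many tumours, had a signal of 711 in J3T-1shA against 1923 in J3T-1, and of 1441 in J3T-2A against 1533 in J3T-2. J3T-1shA was therefore the array that stood apart, 2.70-fold lower than J3T-1, while the other 3 signals lay close together. A second measured probe set gave 451 against 981, a log2 ratio of -1.12 beside -1.43. SLC2A1, the widely expressed basal transporter, had 1659.6 in J3T-1shA against 1758 in J3T-1, and 1323 in J3T-2A against 1543 in J3T-2. Its largest log2 ratio among these comparisons was -0.22, which is within the spread between probe sets. In RNA from a whole culture, fewer cells expressing a gene and less of its RNA per cell cannot be told apart.

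Hexokinases then trap glucose by phosphorylating it, and HK1 and HK2 were steady by their brightest probe sets. HK3 and HKDC1, the hexokinases of the further pathway list, were under the limit on every array. HK1, the widely expressed isoform, had 1013 in J3T-2A against 707 in J3T-2 and 779.5 in J3T-1shA against 771 in J3T-1. Its log2 ratio of 0.52 in J3T-2A over J3T-2 was not shared by its other probe sets, which gave -0.05 and -0.21. HK2, the isoform most often linked to hypoxia and growth, was close to the limit, with 237 in J3T-2A against 248 in J3T-2 and 289 in J3T-1shA against 235.5 in J3T-1. A dimmer HK2 probe set had 297 in J3T-2A against 98.7 in J3T-2, which is at least 1.19-fold higher with the J3T-2 signal set to the limit. GPI, the isomerase of the next step, was steady at 7742.5 to 11201, but GPI also had probe sets shared with a second locus, which are not counted here. All 4 GPI signals lay within 1.45-fold.

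Phosphofructokinase catalyses the committed step, and its 3 subunit genes behaved differently in the knockdown comparison. PFKM, the muscle-type subunit, had 1259 in J3T-1shA against 2495 in J3T-1, which is 1.98-fold lower and just inside the 2-fold limit, and 2095 in J3T-2A against 2347 in J3T-2. PFKL, the liver type, had 1541 in J3T-1shA against 1673 in J3T-1 and 1464 in J3T-2A against 1435 in J3T-2. PFKP, the platelet type, had 1360.5 in J3T-1shA against 1342 in J3T-1 and 1432 in J3T-2A against 1233 in J3T-2. In J3T-1shA over J3T-1 the log2 ratios of PFKL and PFKP were thus -0.12 and 0.02, beside -0.99 for PFKM. PFKM had only 1 probe set, so this difference between subunits has no check by another. In J3T-2A over J3T-2 all 3 subunits were within 0.22 of 0 on the log2 scale.

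PFKFB3 makes and degrades the sugar phosphate that activates phosphofructokinase, with the making activity far in excess, and it was the single glycolysis gene over 2-fold higher in either comparison. The signal was 1557 in J3T-2A against 708.5 in J3T-2, a 2.20-fold higher value, and 1063 in J3T-1shA against 500.2 in J3T-1, a 2.12-fold higher value. Both engineered lines thus lay above both parental lines. The other 3 PFKFB3 probe sets were under the limit on every array. The ratio in J3T-1shA over J3T-1 was 0.98 on the log2 scale after a pseudocount of 80 and over 1 under the other alternatives that gave a value. PFKFB4, its relative, had 97.6 in J3T-2A against 206 in J3T-2 and 85.2 in J3T-1shA against 57.6 in J3T-1, all under the limit.

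In the middle of the pathway the triose isomerase differed by over 2-fold while the aldolases before it did not. TPI1, which interconverts the triose phosphates made by aldolase, had 6648 in J3T-1shA against 14214 in J3T-1, and 8546 in J3T-2A against 8356 in J3T-2. This is 2.14-fold lower in J3T-1shA, and a second bright probe set gave 6553 against 13459.7, a log2 ratio of -1.04 beside -1.10. J3T-1 also lay above J3T-2 by 0.77 on the log2 scale, so J3T-1 was the high array and J3T-1shA the low one of the 4. Aldolase genes varied less. ALDOA, the main aldolase, had 15669 in J3T-1shA against 19312 in J3T-1 and 15817 in J3T-2A against 16991 in J3T-2. ALDOC, the brain form, had 3604 in J3T-1shA against 4899.5 in J3T-1 and 5446 in J3T-2A against 6279.8 in J3T-2. Their log2 ratios in J3T-1shA over J3T-1 were -0.30 and -0.44. A second ALDOC probe set gave 0.17, and both aldolases were within 0.21 of 0 in J3T-2A over J3T-2.

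GAPDH, which oxidizes the triose phosphate, cannot be read with confidence from these arrays. Its single probe set had 37.2 in J3T-1shA against 356 in J3T-1, and 113 in J3T-2A against 225 in J3T-2, so it reached the limit in J3T-1 alone. Setting the J3T-1shA signal to the limit leaves a difference of at least 1.42-fold, in place of 9.57-fold. Signals this low for a gene that every cell uses are listed as deposited, and whether the probe set reads the main transcript was not tested. PGK1 and PGAM1, the kinase and mutase that follow, were level, with 10869 in J3T-1shA against 9847.5 in J3T-1 for PGK1 and 26409 against 28934 for PGAM1. In J3T-2A against J3T-2, PGK1 had 12285 against 11467 and PGAM1 had 28474 against 27320.3.

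Of the 2 enolases, the neuronal form was over 2-fold lower in J3T-1shA than in J3T-1 and the other was level. ENO2, or neuron-specific enolase, had 471 in J3T-1shA against 1028 in J3T-1, which is 2.18-fold lower, and 1104 in J3T-2A against 1346 in J3T-2. All 3 ENO2 probe sets were lower in J3T-1shA, with log2 ratios of -1.13, -0.98 and -0.89, of which the brightest is past 2-fold. ENO1, the enolase of most tissues, had 31906 in J3T-1shA against 34270.5 in J3T-1 and 35155 in J3T-2A against 32711 in J3T-2. It was level on all 4 arrays, and 2 further bright probe sets gave log2 ratios of 0.02 and -0.05 in J3T-1shA over J3T-1.

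PKM, the pyruvate kinase that ends the pathway, was lower in both engineered lines. It had 765 in J3T-2A against 1779.9 in J3T-2, and 785 in J3T-1shA against 1861 in J3T-1. The 2 engineered lines lay together and so did the 2 parental lines, with a 2.33-fold and a 2.37-fold lower value in the engineered line. The second measured probe set gave 363 in J3T-2A against 444.5 in J3T-2 and 321 in J3T-1shA against 571 in J3T-1. Its log2 ratios of -0.29 and -0.83 kept the direction but not the size, and the first is within the spread between probe sets.

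**Figure D3:**
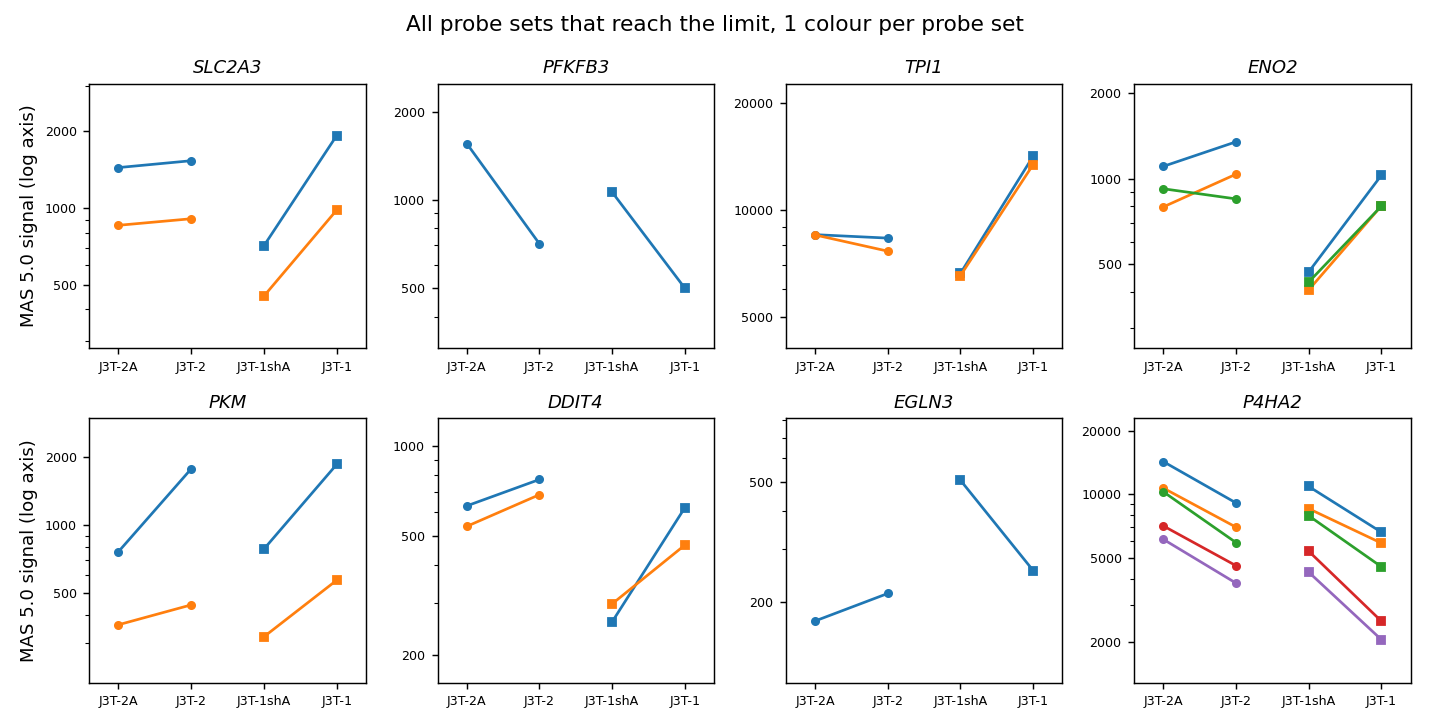
Signals (y axis, log scale) of every single-symbol probe set that reached the limit of 250 on any array, 1 colour per probe set, for 8 genes on the arrays labelled J3T-2A, J3T-2, J3T-1shA and J3T-1, with lines joining each engineered line to its parental line. The 5 P4HA2 probe sets all slope the same way in both pairs, whereas the 2 PKM and the 2 DDIT4 probe sets share a direction but differ in slope.

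Of the genes chosen here, the measured ones that decide the fate of pyruvate were within 2-fold in both comparisons by their brightest probe sets. PDK2, from a further list given below, was over 2-fold lower in J3T-2A than in J3T-2. LDHA, which reduces pyruvate to lactate, was bright and level, with 29527 in J3T-1shA against 31383 in J3T-1 and 31624 in J3T-2A against 27728 in J3T-2. PDK1, a kinase that shuts pyruvate out of mitochondria by inhibiting pyruvate dehydrogenase, had 2486 in J3T-1shA against 3673 in J3T-1 and 3090.2 in J3T-2A against 2607 in J3T-2. Its 1.48-fold lower value in J3T-1shA was larger than the spread between probe sets, and its second probe set gave -0.66 beside -0.56 on the log2 scale. PDK3, a hypoxia-responsive relative, had 419 in J3T-1shA against 519 in J3T-1 and 307 in J3T-2A against 291 in J3T-2. A dimmer PDK3 probe set had 314 in J3T-2A against 142 in J3T-2, at least 1.25-fold higher with the J3T-2 signal set to the limit.

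The exporters of lactate were level or slightly lower. SLC16A3, the exporter of highly glycolytic cells, had 554 in J3T-1shA against 801 in J3T-1 (log2 ratio -0.53) and 498 in J3T-2A against 579 in J3T-2 (-0.22). SLC16A1, which carries lactate both ways, had 470.2 in J3T-1shA against 414 in J3T-1 and 425 in J3T-2A against 368 in J3T-2. LDHB, the lactate dehydrogenase subunit of oxidative tissues, was covered only by probe sets that also match other loci.

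**Figure D4:**
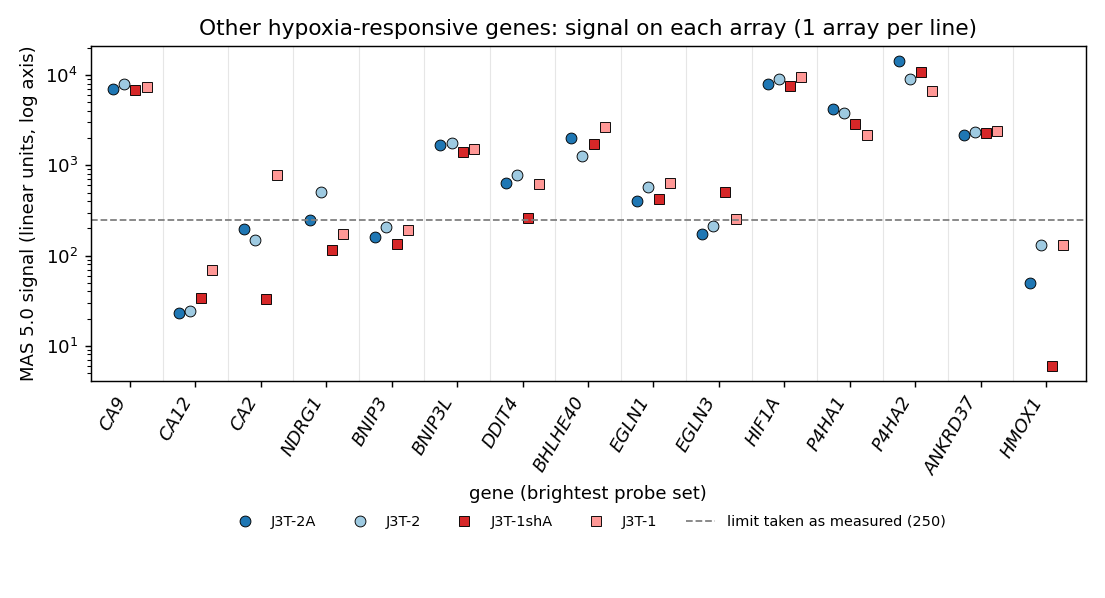
Signal of the brightest probe set (y axis, linear MAS 5.0 units on a log axis) of the 15 other hypoxia-responsive genes (x axis) on the arrays labelled J3T-2A, J3T-2, J3T-1shA and J3T-1, 1 array per line, with the limit of 250 dashed. CA2 reaches the limit in J3T-1 alone, EGLN3 is highest in J3T-1shA, P4HA2 is higher in both engineered lines than in their parental lines, and CA9 and HIF1A are level.

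The HIF system itself was described by HIF1A and by the hydroxylases that mark it. HIF1A, the oxygen-regulated alpha subunit, is controlled mainly at the protein level, and its RNA was level, with 7552 in J3T-1shA against 9533 in J3T-1 and 7984 in J3T-2A against 8994 in J3T-2. Its log2 ratio in J3T-1shA over J3T-1 was -0.34 by this probe set and 0.26 and 0.47 by the other 2, so no direction can be given. EGLN1, the main oxygen-sensing hydroxylase, had 426 in J3T-1shA against 635 in J3T-1 and 404 in J3T-2A against 573 in J3T-2, log2 ratios of -0.58 and -0.50. EGLN3, a hydroxylase that HIF itself induces, had 506 in J3T-1shA against 255 in J3T-1, 1.99-fold higher and just inside the 2-fold limit. Its signals of 174 in J3T-2A and 214 in J3T-2 were under the limit, and so was a second probe set on every array, with 241 in J3T-1shA against 116 in J3T-1. EGLN1 and EGLN3 thus lay on opposite sides of 0 in J3T-1shA over J3T-1.

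The carbonic anhydrases, which buffer the acid that glycolysis makes, differed from each other. CA9, the cell-surface form most used as a marker of hypoxia, was bright and level on all 4 arrays, with 6985 in J3T-2A against 7989.6 in J3T-2 and 6792 in J3T-1shA against 7367 in J3T-1. CA2, the cytosolic form abundant in erythrocytes and glia, had 32.6 in J3T-1shA against 777.5 in J3T-1, and 198 in J3T-2A against 148 in J3T-2. With signals under the limit set to it, CA2 was at least 3.11-fold lower in J3T-1shA. Its other 2 probe sets were under the limit on every array and ran the same way, with 13.2 against 159 and 0.8 against 112.5. Of the erythroid markers HBB, HBA and ALAS2 only ALAS2 had a single-symbol probe set, whose signals of 73.5 to 99.9 stayed under the limit. CA12, a second membrane form, was under the limit throughout.

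Of the genes that hypoxia shares with other stresses, DDIT4 and NDRG1 differed. DDIT4, an inhibitor of mTOR signalling, had 259 in J3T-1shA against 623 in J3T-1, which is 2.41-fold lower, and 631 in J3T-2A against 773 in J3T-2. Its second probe set gave 297 in J3T-1shA against 467 in J3T-1, a log2 ratio of -0.65 beside -1.27, so the direction was shared and the size was not. NDRG1, a stress-induced gene linked to differentiation, had 249 in J3T-2A against 500.2 in J3T-2, and 116 in J3T-1shA against 175 in J3T-1. It was highest in J3T-2, and its ratio of 2.01-fold between J3T-2A and J3T-2 stood at the 2-fold limit. It was within 2-fold after quantile normalization, after median centring and with a pseudocount of 80. HMOX1, which degrades heme, was under the limit throughout.

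The mitophagy receptor BNIP3L was steady, with 1388.5 in J3T-1shA against 1532 in J3T-1 and 1684 in J3T-2A against 1759 in J3T-2. ANKRD37, an ankyrin repeat gene used in hypoxia signatures, was equally level by its brightest probe set (2175 to 2380.3), while a dimmer one had 125 in J3T-1shA against 304.5 in J3T-1. BHLHE40, a transcriptional repressor induced by hypoxia, had 2028 in J3T-2A against 1271 in J3T-2 and 1707 in J3T-1shA against 2661 in J3T-1. Its log2 ratios were 0.67 and -0.64, on opposite sides of 0, but a second measured probe set gave log2 ratios of 0.34 and -0.02.

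The collagen prolyl hydroxylase subunits P4HA1 and P4HA2, which modify collagen chains so that the triple helix is stable, had log2 ratios above 0 in both engineered lines over their parental lines, all within 2-fold by their brightest probe sets. P4HA2 had 14299 in J3T-2A against 9122 in J3T-2, and 10910.4 in J3T-1shA against 6632 in J3T-1. That is 1.57-fold and 1.65-fold higher, larger than the spread between probe sets and within 2-fold. All 5 measured P4HA2 probe sets were above 0 in both comparisons, by 0.61 to 0.80 on the log2 scale in J3T-2A over J3T-2 and by 0.54 to 1.10 in J3T-1shA over J3T-1. P4HA1 had 4199.7 in J3T-2A against 3770.1 in J3T-2 and 2851 in J3T-1shA against 2149 in J3T-1, and its 3 measured probe sets gave log2 ratios of 0.16 to 0.25 in J3T-2A over J3T-2, within the spread between probe sets, and of 0.11 to 0.67 in J3T-1shA over J3T-1.

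Of the fibroblast markers, COL1A1 was higher in both engineered lines, as P4HA2 was, and DCN was higher in J3T-1shA alone. COL1A1, a collagen chain, had 11899 in J3T-2A against 3799 in J3T-2 and 16842 in J3T-1shA against 2014 in J3T-1. DCN, a matrix proteoglycan, had 795 in J3T-2A against 1292 in J3T-2 and 1166.5 in J3T-1shA against 388 in J3T-1. The summed signal of the 4 fibroblast and pericyte markers, most of it COL1A1 on every array, was 12737 in J3T-2A against 5187 in J3T-2 and 18039.8 in J3T-1shA against 2498 in J3T-1, with PDGFRB and RGS5 under the limit on every array. The samples are cultured glioma lines, no label names fibroblasts, and any link of these markers with the P4HA2 values was not tested.

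The comparisons of J3T-2A with J3T-2 and of J3T-1shA with J3T-1 share no array. Of 30 members measured in both, PFKFB3 was over 2-fold higher and PKM over 2-fold lower in both, and none was over 2-fold in opposite directions. Of all 6563 genes measured in both, 46 were higher and 23 lower in both, together 1.05%, and 16 differed in opposite directions. J3T-1shA held the lowest of the 4 signals for 17 of 35 members (48.6%, against 28.1% of all genes), more often than any other array, and J3T-1 held the highest for 17 (48.6%, against 32.3% of all).

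Between the parental lines, J3T-1 against J3T-2, no glycolysis gene differed by over 2-fold. Of 22 measured ones, 17 had a log2 ratio above 0 (77.3%, against 52.5% of all measured genes), with a median of 0.15, beside 0.03 for all measured genes. This comparison shares an array with each of the others. Of 12 other hypoxia genes, CA2 and BHLHE40 were over 2-fold higher and NDRG1 was over 2-fold lower. Over both lists 2 of 34 genes were higher (5.88%) and 1 lower (2.94%), where 2.94% of all 6967 measured genes were higher and 4.05% lower. CA2 had 777.5 in J3T-1 against 148 in J3T-2, at least 3.11-fold higher with the J3T-2 signal set to the limit. NDRG1 had 175 in J3T-1 against 500.2 in J3T-2. With the J3T-1 signal set to the limit NDRG1 was at least 2.00-fold lower, which stands at the 2-fold limit. BHLHE40 had 2661 in J3T-1 against 1271 in J3T-2, a log2 ratio of 1.07 that was 0.33 by a second probe set. PDK3 and TPI1, at 0.83 and 0.77, had the highest log2 ratios of the glycolysis genes.

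Of 31 further genes of glycolysis and pyruvate use, 13 reached the limit on any array. In J3T-2A against J3T-2, PDK2, another inhibitor of pyruvate dehydrogenase, was lower (226 against 578) and the other 11 of 12 measured genes were within 2-fold. Of all measured genes, 1.69% were higher and 2.1% lower there. In J3T-1shA against J3T-1, G6PC3, a glucose phosphatase, was higher (1676 against 803) and the other 9 of 10 were within 2-fold. Of all measured genes, 4.26% were higher and 3.8% lower in that comparison. TIGAR, which lowers glycolytic flux, had 1537 in J3T-1shA against 2810.0 in J3T-1, within 2-fold there, and was over 2-fold higher in J3T-1 than in J3T-2 (1292). Between J3T-1 and J3T-2, 1 of 11 measured genes of this list was higher and 3 were lower, beside the shares of 2.94% and 4.05% of all genes. The lower ones were G6PC3 (803 in J3T-1 against 1741 in J3T-2), PDK2 (175.5 against 578) and LDHD, a mitochondrial lactate dehydrogenase (25.0 against 289.8). LDHD was measured through J3T-2 alone and is at least 1.16-fold lower with the J3T-1 signal set to the limit.

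Among 29 further HIF targets and HIF system genes, 19 reached the limit. In J3T-2A against J3T-2, ADM, which encodes a vasodilator peptide, was higher (1766 against 418), and so was LOX, a collagen cross-linking enzyme (2460.3 against 937). VLDLR, a lipoprotein receptor, was lower (397 against 874), and 15 of 18 measured genes were within 2-fold. That is 2 of 18 higher and 1 of 18 lower, where 1.69% and 2.1% of all measured genes were. In J3T-1shA against J3T-1, VEGFA, whose product drives vessel growth, was lower (1635 against 4725), EPAS1, the alpha subunit of a second HIF, was higher (505 against 128), and 15 of 17 were within 2-fold. That is 1 of 17 each way, where 4.26% of all measured genes were higher and 3.8% lower. EPAS1 had 198 in J3T-2A against 45.7 in J3T-2, both under the limit. The median log2 ratio of this list was -0.20 in J3T-1shA over J3T-1 and -0.06 in J3T-2A over J3T-2. Between J3T-1 and J3T-2, ADM (2075 against 418) and LOX (2086 against 937) were higher in J3T-1, while VLDLR (313.5 against 874) and STC1, a secreted glycoprotein (113 against 711), were lower. EPO, the hormone of red cell production, passed as lower with 73.5 against 260, but is at least 1.04-fold lower with the J3T-1 signal set to the limit. Counting EPO, 2 of 18 genes were higher and 3 of 18 lower, where 2.94% and 4.05% of all measured genes were.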

How the data were processed

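RNA of each line was hybridized to 1 GeneChip Canine Genome 2.0 array, and the authors deposited MAS 5.0 signal intensity values from single-array analyses with default settings and global scaling. The methods give a trimmed mean of 100 as the target, but the deposited columns had trimmed means of 495.8 to 496.0 with the lowest and highest 2% left out. A limit of 50 on the stated scale was therefore multiplied by 5. No detection calls were used. Of 42924 probe sets, 29254 had 1 gene symbol in the platform annotation, 439 had several and 13231 were not listed. All 40 symbols occur in the RefSeq gene table, 36 of them with the gene ID of the platform annotation. HK2, ENO2 and PDK3 have other IDs there, and LDHB has no single-symbol probe set.

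Ratios were taken between deposited signals with Python 3.11.15, numpy 2.4.6 and pandas 2.3.3, with no test, and the functions were tested on simulated data. The members and gene lists were chosen with earlier results of these data known. All members were accounted for. Signals on all 4 arrays were given mainly for those past 1.5-fold, the brightest and dimmest, HIF1A, EGLN1, EGLN3, CA9 and paralogs, and other pathway genes were named where past 2-fold, with EPAS1 under the limit and TIGAR within 2-fold in J3T-1shA over J3T-1 named after their values were seen. The list of astrocyte and glioma markers also held NES, which reached the limit in J3T-1shA alone (346), and OLIG2, which had no single-symbol probe set. Of the endothelial markers PECAM1, CDH5, VWF and KDR, 1 reached the limit, PECAM1 in J3T-2 (773), and of AIF1, CD68, PTPRC and C1QA, markers of microglia and macrophages, C1QA did (298 to 661.5). No genome sequence was used here, so promoter motifs were not searched.

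Alternatives were a limit of 500, no limit, a pseudocount of 80, quantile normalization, median centring, the median of a gene's probe sets, leaving out probe sets ending in _s_at or _x_at, the second brightest probe set and, chosen after seeing the data, signals under 250 set to 250.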

Additional observations from a re-analysis of the deposited data

Results flagged for a closer look

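Under the contrast of the line labelled high in ANXA2 over the line labelled low, 3 genes past 1.5-fold in both pairs ran in opposite directions. PFKFB3 had a log2 ratio of 1.14 for J3T-2A over J3T-2 and of -1.09 for J3T-1 over J3T-1shA, a difference of 2.22. PKM had -1.22 and 1.24, a difference of -2.46, which is smaller by its second probe set. P4HA2 had 0.65 and -0.72, a difference of 1.37. BHLHE40, also past 1.5-fold in both pairs, ran the same way in both under this contrast. Its log2 ratios were 0.67 for J3T-2A over J3T-2 and -0.64 for J3T-1shA over J3T-1. A second probe set gave 0.34 and -0.02. With 1 array per line the differences were not tested.

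Signals far over the limit also came from probe sets outside the gene counts. The 2 bright probe sets that match LDHB and other loci had their lowest signals in J3T-1shA, 9779.8 for the first and 9856 for the second. The first had 13838 in J3T-2A, 14732 in J3T-2 and 13574 in J3T-1, and the second had 14254 in J3T-2A, 14922 in J3T-2 and 14516 in J3T-1. J3T-1 over J3T-1shA gave log2 ratios of 0.47 and 0.56, and J3T-2A over J3T-2 gave -0.09 and -0.07. Which locus they read was not tested.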

How the results depend on the processing

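No paired analysis was possible because each line had 1 array. No 2-fold difference of a member changed direction under any alternative that gave a value for it. A median was taken as moved past the SD between probe sets over the root of the number of measured genes.

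In J3T-2A over J3T-2, glycolysis genes over 2-fold higher (1) became 0 with the median of the probe sets and 3 without _s_at and _x_at probe sets (PFKFB3, HK2 and PDK3, the last 2 against J3T-2 signals under 250), and those lower (1) became 0 under both and 2 with no limit. Other hypoxia genes lower (1, NDRG1) became 2 with no limit and 0 with a pseudocount, quantile normalization, median centring or without _s_at and _x_at probe sets, where their median was 0.094 in place of -0.14.

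In J3T-1shA over J3T-1, glycolysis genes higher (1) became 0 with a pseudocount and with the median of the probe sets. Their median of -0.19 became -0.32 with the median of the probe sets and -0.30 without _s_at and _x_at probe sets. Other hypoxia genes lower (2) became 4 with no limit and 1 with the median of the probe sets, and those higher (0) became 1 with that median and with median centring, EGLN3 in both cases. Their median of -0.14 became -0.51 with no limit, -0.018 with the median of the probe sets and -0.58 without _s_at and _x_at probe sets. With signals under 250 set to 250, 4 glycolysis genes and 2 others were lower.

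In J3T-1 over J3T-2, glycolysis genes lower (0) became 1 with no limit. Other hypoxia genes higher (2) became 1 and their median of -0.05 became -0.44 with the median of the probe sets, and without _s_at and _x_at probe sets the median was 0.15 and those lower (1) became 0.

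The causes were not tested. For all genes, median centring moved the median log2 ratio by up to 0.06, and 116 were higher and 144 lower in J3T-2A over J3T-2 as deposited. There a limit of 500, or signals under 250 set to 250, gave 75 higher and 72 lower, a pseudocount gave 86 lower, and the second brightest probe set gave 51 and 57. In J3T-1 over J3T-2 the counts of 205 higher and 282 lower became 130 and 182 under the first 2 of these and 130 higher with a pseudocount, and the second brightest probe set gave 81 and 162. In J3T-1shA over J3T-1 it gave 169 and 119, beside 296 and 264. With no limit, 1415 genes were higher and 1459 lower in the first comparison, 1650 and 1590 in J3T-1shA over J3T-1 and 1497 and 1638 in J3T-1 over J3T-2. One array per line limits every value here.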
